A study of Mus musculus with 2 samples.

Results

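The genes of the core spliceosome snRNPs were followed in mouse embryonic stem cells with and without small interfering RNA (siRNA) against Son. Members were chosen by gene symbol: the Snrp genes, the subunits of SF3a and SF3b, the numbered Prpf genes, the numbered Lsm genes, and U2af1, U2af2, Eftud2, Snrnp200, Snrnp70 and Cdc5l, with Snrpn and Prpf4b left out. The rule found 51 of the 32285 genes listed in the count tables. For description they were placed in 13 complexes or functional groups, of which 1 holds the 6 LSm genes whose products work outside the spliceosome.

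Small nuclear ribonucleoproteins (snRNPs) are particles of a small nuclear RNA and its proteins. U1 marks the 5′ splice site, U2 with SF3a and SF3b binds the branch point, and the tri-snRNP of U4, U6 and U5 then brings in the RNAs that form the catalytic centre. A ring of Sm proteins sits on the U1, U2, U4 and U5 RNAs, and a related ring of LSm proteins sits on the end of U6. Son encodes a large RNA-binding protein of nuclear speckles, the nuclear bodies in which splicing factors are stored.

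The cells were E14 mouse embryonic stem cells of the 129/Ola background, a line grown here in medium with serum and leukaemia inhibitory factor. Cells transfected with a control siRNA gave the library named control, and cells transfected with Son siRNA gave the library named sonKD, both with Lipofectamine 2000. Both were detached 24 hours after transfection, frozen, thawed, sorted for viability with the dye 7-AAD and barcoded with 10x Genomics Single Cell 3' v3 chemistry. Each group held 1 library, so there was no replicate check, no test was possible and no p-value is given. A difference between the libraries and an effect of the siRNA cannot be told apart, and neither can fewer molecules per cell and more of everything else, since levels are shares of a library.

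A barcode counted as a cell from 2500 UMIs and 1000 genes upward, with mitochondrial UMIs up to 10%, where a UMI (unique molecular identifier) marks 1 captured molecule. This left 4978 control cells with 40902904 UMIs and 2731 sonKD cells with 32032551 UMIs. The median depth was 7737.5 UMIs per control cell and 11612 per sonKD cell. Of the barcodes past the first 2 limits, 11.2% in control and 27.9% in sonKD had more than 10% mitochondrial UMIs and were left out. The libraries shared 2 cell barcodes. All 10 embryonic stem cell markers were above 10 CPM (UMIs of a gene per 1000000 UMIs of the cells) in the mean of both libraries, with Esrrb lowest at 129 CPM. The 8 feeder or fibroblast markers summed to 4.60 CPM in control and 4.71 CPM in sonKD, with Col3a1, Postn and Lum at 0 in both. The UMIs of ribosomal protein genes made up 20.6% of the control and 24.0% of the sonKD total, which lowers the CPM of other genes in sonKD. Scalings without that weight are given beside the results they change.

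Son itself (ENSMUSG00000022961) had 6894 UMIs, or 169 CPM, in control and 3386 UMIs, or 106 CPM, in sonKD. Its log2 ratio of sonKD over control was -0.67, with a 95% counting interval of -0.73 to -0.61, and it stood at 62.7% of control. The Son RNA therefore differed in the direction of the labels.

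The 51 genes as a whole were slightly higher in sonKD: together they held 10257 CPM in control and 10809 CPM in sonKD, 105% of control, with a log2 ratio of 0.08 (0.07 to 0.08). In cells of like depth this summed ratio was 0.04 (0.00 to 0.09) from 2500 to 5000 UMIs and 0.01 (-0.00 to 0.03) from 5000 to 10000. It was 0.10 (0.09 to 0.11) from 10000 to 20000 UMIs and 0.03 (0.00 to 0.07) from 20000 upward. The sum was carried by a few genes. The median member had a log2 ratio of -0.05 and the quartiles were -0.21 and 0.06. All 51 passed the minimum of 10 CPM in the mean of both libraries, which 8063 genes reached, and the median of those 8063 genes was -0.12 with its 5th percentile at -0.40 and its 95th at 0.25. Of the members, 45 lay inside these limits and 33 lay above the median gene.

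To choose genes to name, a line was drawn at 25% higher and 20% lower in sonKD, which is 0.32 either way on the log2 scale. At least 25% higher were 6 of the 51 members, namely Snrpf, Snrpg, Lsm7, Snrpe, Lsm3 and Snrpd2, where 3.50% of all 8063 genes were that much higher. Each of the 6 encodes a subunit of the Sm ring or of the LSm ring of U6. At least 20% lower were 4 of the 51 members, namely Prpf19, Sf3b2, Prpf31 and Prpf40b, where 10.2% of all genes were that much lower. These 4 lay at percentiles 5.63, 7.34, 7.60 and 9.13 of all genes, inside the limits given above, so that nothing is read from their count. Because 74.9% of all genes had a ratio below 0, the counts were also taken relative to the median gene. On that scale 7 members were at least 25% higher, Lsm6 joining the 6, against 6.46% of all genes, and 0 members were that much lower, against 3.82% of all genes. With TMM factors in place of library sums, 4.60% of all genes were lower and 5.57% higher past the line, with 0 members lower and the same 6 members higher.

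**Figure D1:**
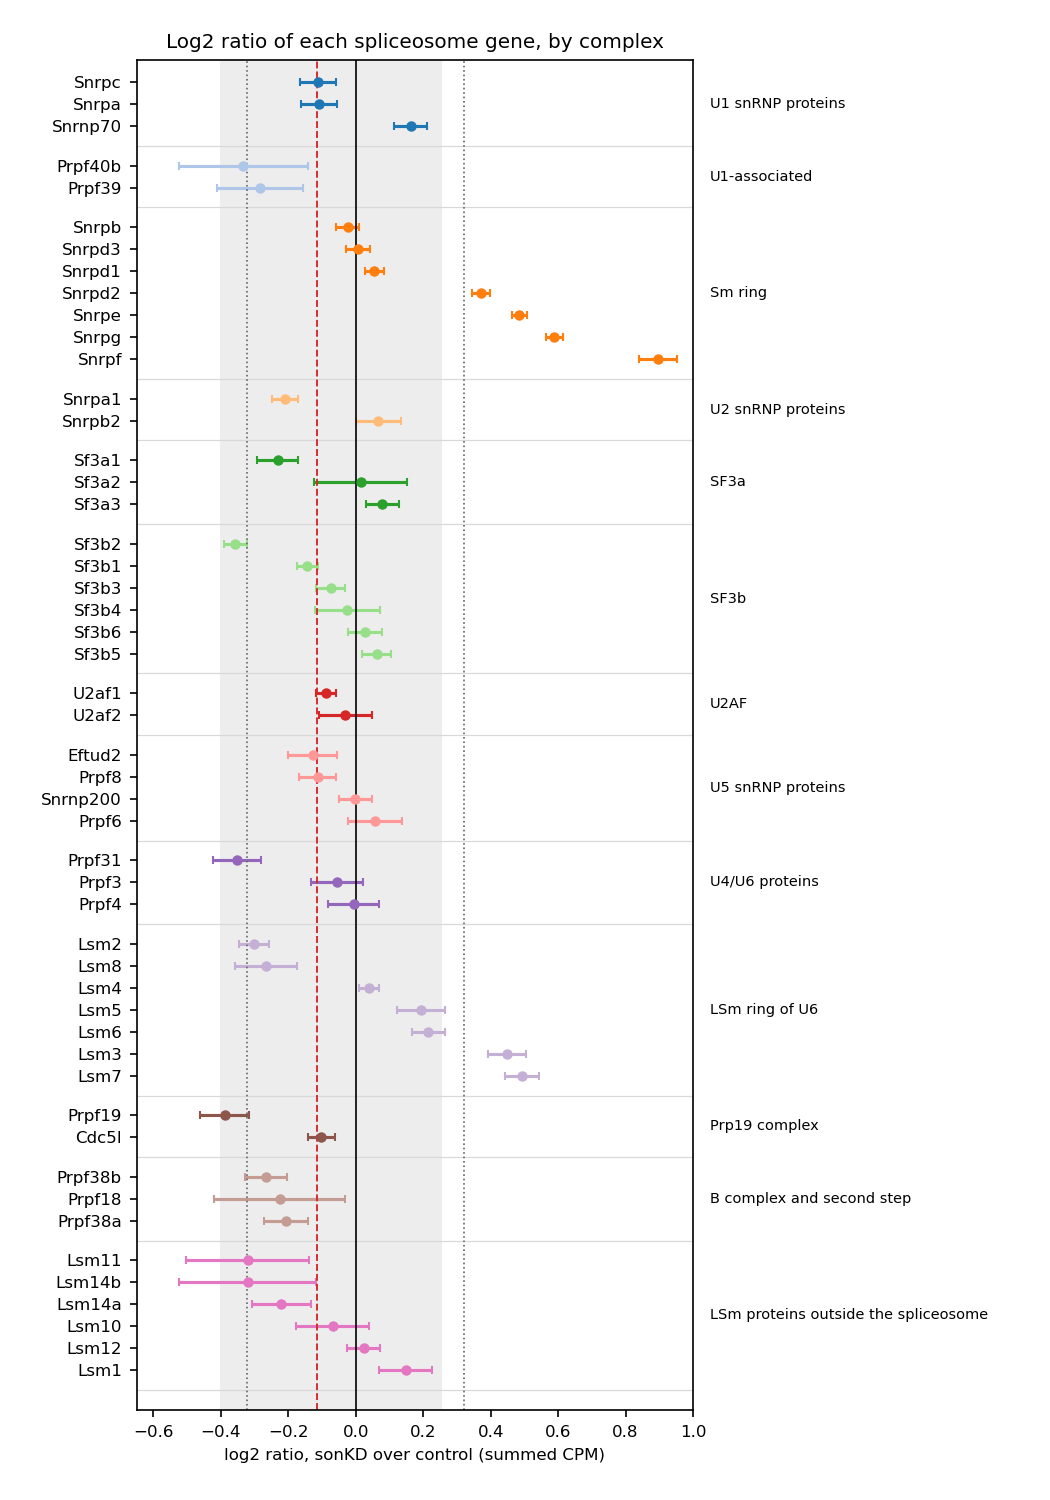
Log2 ratio of sonKD over control for 50 of the 51 genes, grouped by complex, with 95% counting intervals as bars. The dashed line is the median of all 8063 genes at -0.12, the shading runs from their 5th to their 95th percentile and the dotted lines stand at 25% higher and 20% lower. The Sm ring holds 4 of the 6 genes past the right dotted line.

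The stretches upstream of the transcription start are shown for 3 of the genes that were higher and for Prpf19, the member with the lowest ratio. They come from the RefSeq promoter table for GRCm38.p6 and are cut so that they end before the gene model of GENCODE M21 as well. Snrpg, Snrpd2 and Lsm3, which were also higher, are not shown because this cut left too few bases. Capitals mark CGGAAG, the core that ETS family factors bind, and CCAAT, the box that NF-Y binds, on either strand. The Snrpf stretch is chr10:93589707-93589908 on the minus strand, that of Snrpe is chr1:133610292-133610530 on the minus strand, that of Lsm7 is chr10:80855210-80855459 on the minus strand, and that of Prpf19 is chr19:10894981-10895230 on the plus strand.
Snrpf: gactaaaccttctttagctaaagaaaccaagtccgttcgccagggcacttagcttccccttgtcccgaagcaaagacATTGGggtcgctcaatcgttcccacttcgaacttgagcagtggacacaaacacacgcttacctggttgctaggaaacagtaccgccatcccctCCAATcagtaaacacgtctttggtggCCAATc
Snrpe: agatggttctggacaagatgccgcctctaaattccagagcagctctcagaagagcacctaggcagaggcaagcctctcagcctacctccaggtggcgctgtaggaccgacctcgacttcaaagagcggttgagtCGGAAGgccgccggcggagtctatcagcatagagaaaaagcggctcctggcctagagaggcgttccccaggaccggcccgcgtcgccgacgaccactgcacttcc
Lsm7: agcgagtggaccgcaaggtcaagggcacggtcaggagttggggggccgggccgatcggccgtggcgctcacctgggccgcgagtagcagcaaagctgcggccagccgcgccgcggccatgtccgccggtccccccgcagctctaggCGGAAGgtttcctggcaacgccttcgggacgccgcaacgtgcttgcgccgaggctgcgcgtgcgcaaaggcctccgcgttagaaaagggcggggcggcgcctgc
Prpf19: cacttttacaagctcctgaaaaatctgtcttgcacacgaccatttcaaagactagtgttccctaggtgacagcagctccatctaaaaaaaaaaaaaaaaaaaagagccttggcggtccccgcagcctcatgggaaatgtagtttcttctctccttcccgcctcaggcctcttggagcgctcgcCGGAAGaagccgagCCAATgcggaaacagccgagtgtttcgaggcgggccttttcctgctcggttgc
The Snrpf stretch held 3 matches to CCAAT and 0 to CGGAAG, those of Snrpe and Lsm7 held 1 match to CGGAAG each, and that of Prpf19 held 1 of each. Over the full 250 bases upstream, RefSeq windows were at hand for 40 of the 51 members, 48 windows in all. CGGAAG was found in 52.1% of them, against 13.6% of the 32851 windows of all genes. Those windows were not limited to genes at 10 CPM, a minimum that all 51 members passed. Whether the members differ from other genes at that level was not tested, for this motif or the next 3. CCAAT was found in 43.8% against 33.8%, GGGCGG, the GC box, in 54.2% against 32.7%, and TATAAA, the TATA box, in 4.17% against 12.4%, all counted on both strands. Among the 6 genes that were higher, 4 had CGGAAG, 2 had CCAAT, 3 had GGGCGG and 0 had TATAAA, so no motif of these was common to all of them. A match describes the letters in the window and nothing about binding.

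The Sm ring was the group with the largest summed ratio among the 13. Its 7 genes together held 3243 CPM (3226 to 3261) in control and 4101 CPM (4079 to 4124) in sonKD, 126% of control, and the log2 ratio was 0.34 (0.33 to 0.35). The 7 genes differed among themselves: 4 were at least 25% higher and the other 3 lay within 0.06 of 0. The Sm proteins join the snRNA from smaller pre-formed sets, one of E, F and G, one of D1 and D2, and one of D3 with B.

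Snrpf (ENSMUSG00000020018; chromosome 10, 93583029 to 93589706, minus strand; 4 exons), which encodes SmF, held 106 CPM (103 to 110) in control and 198 CPM (193 to 203) in sonKD. Its log2 ratio was 0.90 (0.84 to 0.95), or 186% of control, which placed it at the 99.8th percentile of all 8063 genes. The Snrpf locus overlaps Ccdc38 and 4933408J17Rik on the opposite strand. Snrpg (ENSMUSG00000057278; chromosome 6, 86371304 to 86379328), which encodes SmG, held 550 CPM (543 to 558) and 828 CPM (818 to 838), a log2 ratio of 0.59 (0.56 to 0.61). Snrpe (ENSMUSG00000090553; chromosome 1, 133603871 to 133610291), which encodes SmE, held 776 CPM (767 to 784) and 1086 CPM (1075 to 1098), a log2 ratio of 0.49 (0.46 to 0.51). These 3 genes encode the E, F and G set, and all 3 were higher in sonKD with intervals that did not meet.

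Snrpd2 (ENSMUSG00000040824; chromosome 7, 19149722 to 19153542), which encodes SmD2, held 553 CPM (546 to 561) in control and 716 CPM (707 to 726) in sonKD, a log2 ratio of 0.37 (0.35 to 0.40). Its partner in the same pre-formed set, Snrpd1, held 524 CPM and 545 CPM, a log2 ratio of 0.06 (0.03 to 0.08). The partners D1 and D2 thus differed in ratio, with intervals that did not overlap. Snrpd3 held 352 CPM in control and 353 CPM in sonKD, a log2 ratio of 0.01 (-0.03 to 0.04). Snrpb, which encodes SmB, held 382 CPM and 375 CPM, a log2 ratio of -0.02 (-0.06 to 0.01). The signs of Snrpd3 and Snrpb changed in at least 1 of the 9 settings tried, scalings included for Snrpb, whereas both stayed above the median gene in all 9.

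The LSm ring of U6, which protects the end of U6 and helps it pair with U4, held 1297 CPM in control and 1393 CPM in sonKD over its 7 genes. The log2 ratio was 0.10 (0.08 to 0.12), or 107% of control, and the genes went both ways. Lsm7 (ENSMUSG00000035215; chromosome 10, 80852821 to 80855209) held 144 CPM (141 to 148) and 203 CPM (198 to 208), a log2 ratio of 0.49 (0.44 to 0.54). Lsm3 (ENSMUSG00000034192; chromosome 6, 91515928 to 91522625) held 119 CPM (115 to 122) and 162 CPM (158 to 166), a log2 ratio of 0.45 (0.39 to 0.51). The Lsm3 locus overlaps AC161456.1 on the same strand, and whether this affects the Lsm3 count was not tested. Lsm7 and Lsm3 were the only LSm genes at least 25% higher. Lsm6 followed at 0.22 (0.17 to 0.27), from 164 CPM to 191 CPM, and Lsm5 at 0.19 (0.12 to 0.27), from 83.3 CPM to 95.3 CPM. Lsm4 lay close to 0 at 0.04 (0.01 to 0.07).

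The remaining ring genes were lower in sonKD. Lsm2 held 253 CPM in control and 205 CPM in sonKD, a log2 ratio of -0.30 (-0.35 to -0.26). Lsm8, the subunit that sets the U6 ring apart from the cytoplasmic ring, held 59.8 CPM and 49.7 CPM, a log2 ratio of -0.27 (-0.36 to -0.18). Both ratios were above the 5th percentile of all genes.

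**Figure D2:**
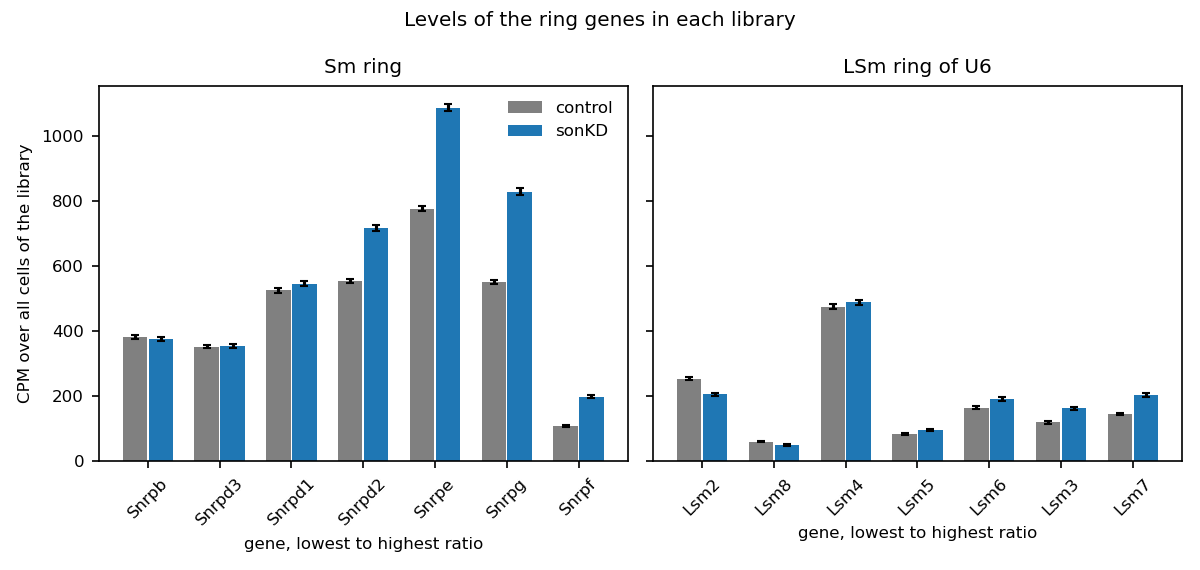
CPM over all cells of each library for the 7 genes of the Sm ring (left) and the 7 genes of the LSm ring of U6 (right), grey for control and blue for sonKD, with 95% Poisson intervals. Within each panel genes run from the lowest to the highest ratio, so that Snrpf stands last on the left and Lsm7 last on the right. Each gene is to be read against itself.

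Some of these genes have near-identical copies, and whether their counts depend on how reads from copies were handled was not tested. In GENCODE M21, at least 1 coding transcript of Lsm7 shared 61.1% of the 60-base words in its last 500 bases with other annotated genes, and U2af1 shared 70.5%. The values were 46.0% for Lsm5, 30.8% for Snrpc, 28.6% for Snrpe, 26.3% for Lsm3, 1.36% for Snrpf and 0 for Snrpg and Snrpd2. Looked up by symbol, 2 of the sharing genes had a row in the count tables. Both share sequence with Cdc5l and held 0 UMIs in both libraries. Sharing genes with a row under another symbol were not covered by this. AC161456.1, which shares sequence with Lsm3 and overlaps it on the same strand, has a row by gene identifier, and its count is not given here. How such reads were assigned is not given in the sources used here, so the values for Lsm7, Lsm5, U2af1, Snrpc, Snrpe and Lsm3 are to be taken as uncertain.

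The U1 proteins differed little as a group, with 501 CPM in control and 497 CPM in sonKD, a log2 ratio of -0.01 (-0.04 to 0.02) whose sign changed with the scaling. Snrnp70, the U1-70K protein that contacts SR proteins at the 5′ splice site, held 169 CPM and 189 CPM, a log2 ratio of 0.16 (0.11 to 0.21). This ratio depended on depth: it was 0.45 (0.12 to 0.76) from 2500 to 5000 UMIs per cell and -0.06 (-0.17 to 0.04) from 5000 to 10000. From 10000 to 20000 UMIs it was 0.02 (-0.05 to 0.10), and from 20000 upward 0.50 (0.26 to 0.75). Snrpc and Snrpa, which encode the other specific proteins of U1, both had a log2 ratio of -0.11, close to the median gene. Among the U1-associated genes, Prpf39 held 31.7 CPM and 26.0 CPM, a ratio of -0.28 (-0.41 to -0.16). Prpf40b (ENSMUSG00000023007; chromosome 15, 99295087 to 99317018) had 587 and 365 UMIs, or 14.4 CPM and 11.4 CPM, and its ratio of -0.33 (-0.53 to -0.14) had one of the widest intervals in the set.

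Among the genes of the branch-point machinery, 1 of the U2 proteins, 1 of SF3a and 2 of SF3b lay below the median gene. The U2 proteins held 423 CPM and 384 CPM, a log2 ratio of -0.14 (-0.17 to -0.11). Of them Snrpa1, part of the protein pair on a hairpin of the U2 RNA, stood at -0.21 (-0.25 to -0.17), from 326 CPM to 282 CPM, and Snrpb2, the other of the pair, at 0.07 (-0.00 to 0.13), from 96.9 CPM to 101 CPM. The 3 SF3a genes summed to 333 CPM and 324 CPM, a log2 ratio of -0.04 (-0.08 to -0.00) whose sign changed with the scaling. This ratio varied with depth: it was -0.43 (-0.71 to -0.15) from 2500 to 5000 UMIs per cell and -0.22 (-0.30 to -0.14) from 5000 to 10000. From 10000 to 20000 UMIs it was -0.04 (-0.09 to 0.02), and from 20000 upward -0.25 (-0.41 to -0.08). The median of all genes in the same ranges was 0.02, -0.16, -0.18 and 0.00. Over all cells, Sf3a1 was the lowest of the 3 genes at -0.23 (-0.29 to -0.17), from 131 CPM to 111 CPM, and Sf3a3 the highest at 0.08 (0.03 to 0.13), from 178 CPM to 188 CPM. In the same ranges of depth, Sf3a1 had -0.87, -0.40, -0.24 and -0.51.

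SF3b clamps the branch-point adenosine between its subunits, and its 6 genes summed to 1658 CPM in control and 1511 CPM in sonKD, a log2 ratio of -0.13 (-0.15 to -0.12). Most of that difference in CPM came from Sf3b2 (ENSMUSG00000024853; chromosome 19, 5273932 to 5295455), which held 455 CPM (449 to 462) and 356 CPM (349 to 362), a log2 ratio of -0.36 (-0.39 to -0.32). Sf3b1, the subunit that is recurrently mutated in blood cancers, held 504 CPM and 456 CPM, a log2 ratio of -0.14 (-0.17 to -0.11). The other 4 lay between -0.07 and 0.06: Sf3b5, which has a single exon, was the highest, from 234 CPM to 245 CPM. The U2AF pair, which reads the 3′ splice site, stood at -0.08 (-0.11 to -0.05), and this sign changed with the scaling. U2af1 held 550 CPM and 518 CPM, a log2 ratio of -0.09 (-0.12 to -0.06), and U2af2 had a ratio of -0.03 (-0.11 to 0.05).

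The U5 proteins, the scaffold and the motor of the tri-snRNP, summed to 502 CPM in control and 485 CPM in sonKD, a log2 ratio of -0.05 (-0.08 to -0.02), and the sign changed with the scaling. Snrnp200, the helicase that unwinds U4 from U6, held 187 CPM in both libraries over all cells, but its ratio varied between ranges of depth. Its log2 ratio was -0.11 (-0.44 to 0.21) from 2500 to 5000 UMIs per cell and -0.32 (-0.44 to -0.21) from 5000 to 10000. It was -0.16 (-0.23 to -0.09) from 10000 to 20000 UMIs and 0.36 (0.12 to 0.61) from 20000 upward. In these ranges the median of all genes was 0.02, -0.16, -0.18 and 0.00. Prpf8, the scaffold of the catalytic centre, held 155 CPM and 144 CPM, a log2 ratio of -0.11 (-0.17 to -0.06). Eftud2, the GTPase of the particle, was the lowest of the U5 genes at -0.13 (-0.20 to -0.05), and Prpf6 the highest at 0.06 (-0.02 to 0.14). Over all cells, none of the 4 was past the line at 25% higher or 20% lower.

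Of the 3 U4/U6 proteins, which summed to a log2 ratio of -0.15 (-0.19 to -0.11), Prpf31 stood apart. Prpf31 (ENSMUSG00000008373; chromosome 7, 3629985 to 3642486), a U4 protein needed to form the tri-snRNP, held 102 CPM (98.8 to 105) and 79.8 CPM (76.7 to 82.9), a log2 ratio of -0.35 (-0.42 to -0.28). Prpf3 had a ratio of -0.05 (-0.13 to 0.02), and Prpf4, from 78.3 CPM to 78.0 CPM, a ratio of -0.01 (-0.08 to 0.07), with signs that changed with the scaling.

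Prpf19 and Cdc5l, core subunits of the Prp19 complex that activates the spliceosome, summed to 403 CPM in control and 359 CPM in sonKD, a log2 ratio of -0.17 (-0.20 to -0.13). Prpf19 (ENSMUSG00000024735; chromosome 19, 10895231 to 10909559), the ubiquitin ligase of the complex, had the lowest ratio of all 51 genes at -0.39 (-0.46 to -0.32), from 98.4 CPM (95.4 to 101) to 75.2 CPM (72.2 to 78.3). Cdc5l held 304 CPM and 283 CPM, a ratio of -0.10 (-0.14 to -0.06). The group of the B complex and the second step was lowest as a sum, from 256 CPM to 217 CPM, a log2 ratio of -0.24 (-0.28 to -0.19). Its members were alike: Prpf38b stood at -0.27 (-0.33 to -0.20), from 129 CPM to 107 CPM, Prpf18 at -0.22 (-0.42 to -0.03) and Prpf38a at -0.21 (-0.27 to -0.14).

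The 6 LSm genes outside the spliceosome summed to 384 CPM and 378 CPM, a log2 ratio of -0.02 (-0.06 to 0.01) whose sign changed with the scaling. Lsm1, which takes the place of Lsm8 in the cytoplasmic ring of mRNA decay, stood at 0.15 (0.07 to 0.23), from 68.7 CPM to 76.2 CPM. Lsm11, a subunit of the U7 snRNP that cuts histone mRNA, stood at -0.32 (-0.50 to -0.14), from 15.9 CPM to 12.7 CPM, and its U7 partner Lsm10 at -0.07 (-0.18 to 0.04). Lsm12 held 182 CPM and 185 CPM. Lsm14b, of the P-body proteins, stood at -0.32 (-0.52 to -0.12) on 518 and 325 UMIs. Lsm11 and Lsm14b lay just inside the line at 20% lower, Prpf40b at -0.33 lay just outside, and on the higher side Snrpd2 at 0.37 was the nearest gene outside and Lsm6 at 0.22 the nearest inside.

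The same 6 genes were at least 25% higher in all 9 settings, which comprised 4 scalings of the full set of cells, 3 other selections of cells, cells thinned to equal depth and a mean over cells. The count of members at least 20% lower ranged from 0 under each of the 3 alternative scalings to 7 in thinned cells, and 0 members were lower in every setting. The alternative scalings raise the ratio of every gene by the same amount, so they can only empty the lower side and fill the higher side. Relative to the median gene of each setting, the Sm ring lay at 0.44 to 0.47, the LSm ring at 0.20 to 0.23, the Prp19 complex at -0.06 to -0.04 and the B complex group at -0.19 to -0.12.

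Shares of cells with a UMI differed in the same direction for these genes when every cell was thinned to 2500 UMIs, which left no cell out. Snrpf was found in 23.2% of control cells and 38.2% of sonKD cells, a difference of 15.0 percentage points (12.8 to 17.2). Snrpg was found in 74.3% and 86.4%, Snrpe in 83.9% and 91.5%, Snrpd2 in 74.1% and 81.8%, Lsm7 in 30.8% and 39.1%, and Lsm3 in 25.7% and 33.2%. Sf3b2 was found in 67.0% of control cells and 56.2% of sonKD cells, Prpf31 in 22.9% and 17.6%, and Prpf19 in 21.9% and 17.9%. Prpf40b was found in 3.58% and 2.86%, a difference of -0.72 points whose interval, -1.53 to 0.14, held 0, so none was detectable at this depth. Without thinning, Snrpf was found in 56.7% and 84.4% of cells and Sf3b2 in 93.4% and 93.6%, at the unequal median depths given above. The median difference over the 51 genes was -0.45 points. No cell type that lacks these genes was at hand as a background.

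Free RNA was therefore read from droplets of 100 to 500 UMIs. In them Snrpf held 202 CPM in control and 363 CPM in sonKD, a log2 ratio of 0.85, and the Sm ring held 5546 CPM and 6835 CPM, a log2 ratio of 0.30. The other 5 genes that were higher in cells had droplet ratios of 0.50 for Snrpg, 0.44 for Snrpe, 0.44 for Lsm3, 0.37 for Snrpd2 and 0.36 for Lsm7. The 4 lower genes were lower there too, at -0.71 for Sf3b2, -0.48 for Prpf31, -0.44 for Prpf19 and -1.44 for Prpf40b. The Prpf40b value rests on low droplet levels of 3.92 CPM in control and 1.45 CPM in sonKD, with a wide interval of -2.13 to -0.78. Cells and droplets thus differed between libraries in the same direction for these 10 genes, and what free RNA adds to the cells was not tested.

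Per cell, the 51 genes made up a median share of 1.02% of a control cell (quartiles 0.921% and 1.12%) and 1.08% of a sonKD cell (0.987% and 1.16%). The distributions overlapped widely. After thinning, the median control cell had 25 UMIs from the set and the median sonKD cell 27, from 17 different members each. Because sonKD cells were deeper, the shares were also compared in like ranges of UMIs. The medians were 0.928% and 0.962% from 2500 to 5000 UMIs, 1.03% and 1.05% from 5000 to 10000, 1.02% and 1.10% from 10000 to 20000, and 1.06% and 1.08% from 20000 upward, where 49 control cells and 114 sonKD cells lay.

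**Figure D3:**
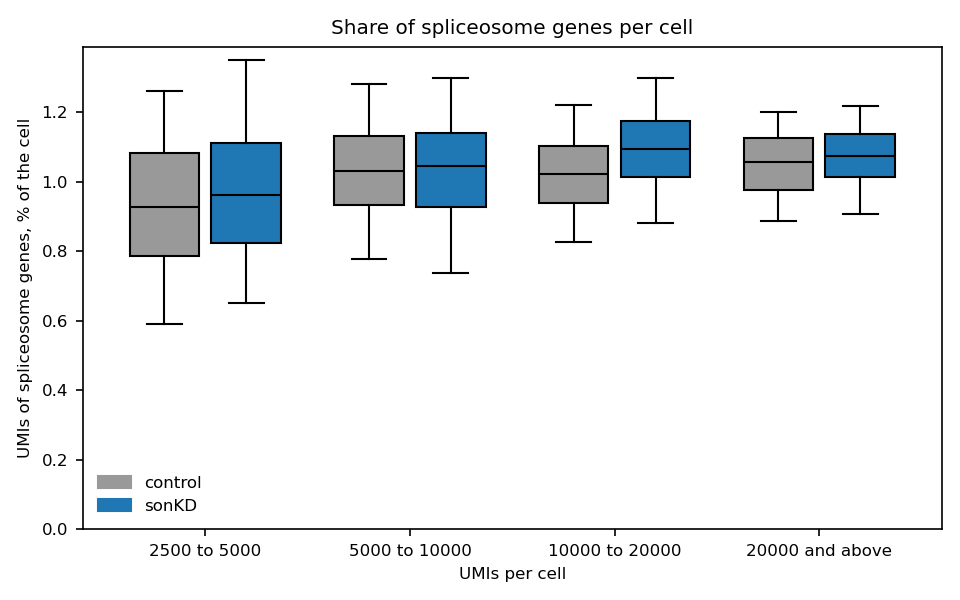
Percent of the UMIs of each cell that belong to the 51 genes, in 4 ranges of UMIs per cell, grey for control and blue for sonKD. Boxes span the quartiles with the median as a line and whiskers reach the 5th and 95th percentiles of cells. The sonKD median is the higher of each pair, and the boxes overlap in all 4 ranges, most apart from 10000 to 20000 UMIs at medians of 1.02% and 1.10%.

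The ratios of single genes were also taken within these ranges. From the shallowest range to the deepest, the Sm ring had log2 ratios of 0.18, 0.31, 0.42 and 0.27. Snrpf had 0.95, 0.72, 1.04 and 0.88, and each of the other 5 higher genes was above 0 in all 4 ranges. Sf3b2 had -0.38, -0.52, -0.40 and -0.36, and the other 3 lower genes varied more. In the shallowest range Prpf19 had -0.09 (-0.60 to 0.40), Prpf31 -0.07 (-0.56 to 0.39) and Prpf40b 0.21 (-1.17 to 1.43), a sign opposite to its ratio over all cells. In the 3 deeper ranges all 3 were below 0. The LSm ring had 0.01, 0.04, 0.17 and 0.02, so that its summed difference was largest in cells of 10000 to 20000 UMIs. Some members not past the line varied between ranges too. U2af1, at -0.09 over all cells, had 0.13, -0.31, -0.05 and -0.21. Sf3a3, at 0.08 over all cells, had -0.19, -0.10, 0.09 and -0.01. The median of all genes in the same ranges was 0.02, -0.16, -0.18 and 0.00.

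Gene structure went along with the ratio. Over the 51 genes, Spearman's rho of the log2 ratio was -0.44 with the length of the longest coding transcript and -0.48 with the number of exons, where all 8063 genes gave -0.28 and -0.29. At a minimum of 50 CPM the values were -0.39 and -0.54 over members and -0.35 and -0.36 over all genes, so that the gap for length nearly closed. These are descriptions over genes that share 2 libraries. With GC content rho was -0.13 in the members and -0.03 in all genes. When all genes were divided into 4 classes of like size by length, 21 members fell in the shortest class, of 204 to 1879 bases, and all 6 genes that were higher were among them, with a member median of 0.04 against -0.03 for all genes. In that class 11.3% of all genes were at least 25% higher, against 1.89%, 0.545% and 0.298% in the longer classes. Of the 4 lower genes, Sf3b2, Prpf31 and Prpf40b fell in the third class and Prpf19 in the longest. Length did not order the ring genes among themselves: Lsm8 and Lsm2, at 807 and 873 bases, were lower, and Snrpf at 861 bases was the highest of all.

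**Figure D4:**
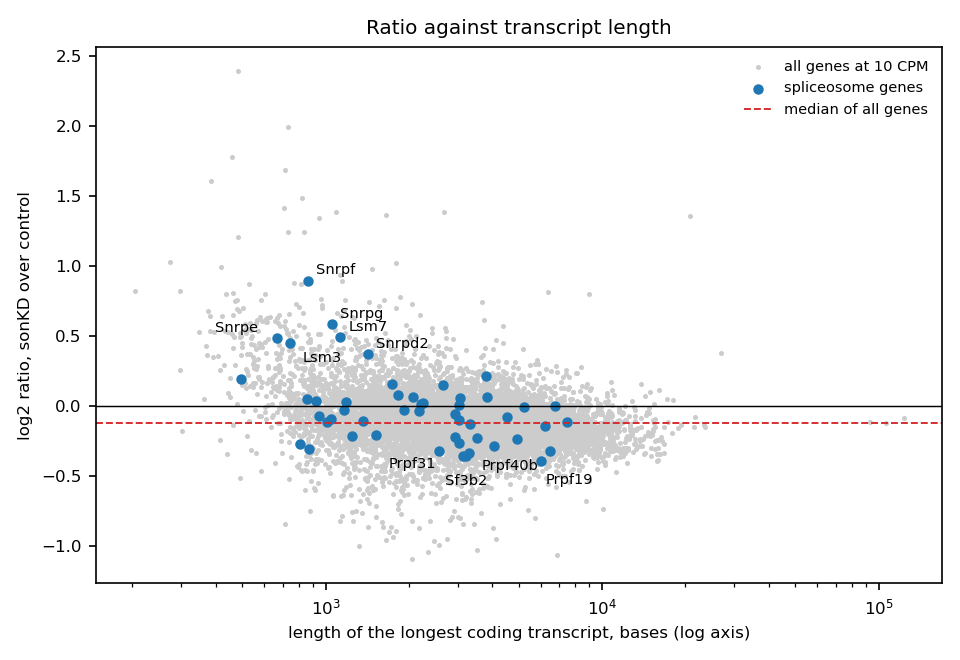
Log2 ratio of sonKD over control against the length of the longest coding transcript on a log axis, grey for all 8063 genes and blue for 50 of the 51 spliceosome genes, with members at least 25% higher or 20% lower named. The 6 named genes above 0 all lie at lengths of 1879 bases or less, and the dashed line marks the median of all genes at -0.12.

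Genes of 6 further lists, whose products work beside these particles, were read for comparison. Of 12 other U2-related genes the median was -0.08, and 2 were at least 20% lower: Cherp at -0.56 (-0.66 to -0.45), from 51.9 CPM to 35.3 CPM, and Puf60, which helps U2AF at weak 3′ splice sites, at -0.44 (-0.51 to -0.38). Rbm17, which works with Cherp, was the highest of that list at 0.32 (0.26 to 0.38), from 127 CPM to 158 CPM. Cherp and Rbm17 thus differed in direction.

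The 11 other tri-snRNP genes had a median of -0.21, with 2 at least 20% lower, Sart1 at -0.47 (-0.56 to -0.38) and Ppih at -0.40 (-0.50 to -0.30), and Snu13 highest at 0.03. Among 22 further genes of the Prp19 complex and the catalytic steps the median was -0.06. Bcas2, which joins Prpf19 and Cdc5l, was the lowest at -0.57 (-0.61 to -0.53), from 322 CPM to 217 CPM, Xab2 was also past the line at -0.40 (-0.55 to -0.26), and Dhx8, the helicase that releases the spliced mRNA, was the highest at 0.22. In these 3 lists 0 genes were at least 25% higher, where 3.50% of all genes were, and the lower genes were 2 of 12, 2 of 11 and 2 of 22, where 10.2% of all genes were, so that nothing is read from these counts.

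Of 20 genes of snRNP assembly and import at 10 CPM the median was -0.07. Gemin6, a subunit of the SMN complex that loads the Sm ring, was the 1 gene at least 25% higher, at 0.38 (0.30 to 0.47), from 50.6 CPM to 66.1 CPM, and Mepce was the lowest at -0.26. The 8 measured genes of the minor spliceosome had a median of -0.05 and ran from -0.15 for Snrnp48 to 0.11 for Zcrb1. The 6 measured genes of the exon junction complex had a median of 0.02 and ran from -0.31 for Eif4a3 to 0.21 for Casc3.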

How the data were processed

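Transcripts of single cells were counted in 2 libraries, 1 per group, with groups taken from the sample titles. The deposited files list raw UMI counts of each gene for every barcode, without a selection of cells, and per the submitters' processing notes the authors used Cell Ranger 7.1.0 and the build mm10. Which annotation was used, and whether intronic reads were counted, is not given in the sources used here. Per library, the UMIs of each gene were added up over cells and divided by the total of those cells to give CPM, and log2 ratios used no pseudocount, with counts under 3 set to 3. Intervals are at 95% and cover counting error only: exact Poisson for levels, exact conditional binomial for ratios and Clopper-Pearson for shares. Positions and structures are those of GENCODE M21 on GRCm38, which held 32235 of the 32285 listed genes and all 51 members. Doublets were not removed, and an alternative left out the 5% of cells with the most UMIs. Alternatives covered TMM factors from edgeR 4.0.16 in R 4.3.3, median-of-ratios size factors, CPM without mitochondrial and ribosomal protein genes, other cell limits, thinning, a mean over cells and other gene minimums. Named genes were those at least 25% higher or 20% lower and, per group, the first in level and those with the highest and lowest ratios. Of the 51 members, 1 is counted in the totals but not reported here. The members and the other lists were chosen with earlier results of these data known. Computations used Python 3.11.15, and the scripts were tested on simulated data.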

Additional observations from a re-analysis of the deposited data

Results flagged for a closer look

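Barcodes with more than 10% mitochondrial UMIs entered no comparison of the report, and they held 1975193 UMIs in control and 3643329 in sonKD. In them 8 of the 51 genes were at least 25% higher in sonKD than in control with a counting interval above 0, where 5.13% of the 8063 genes were. Snrpf had a log2 ratio of 1.10 (0.80 to 1.42), from 56.2 CPM to 121 CPM. Sf3a2 had 0.72 (0.04 to 1.45) where its ratio in cells was 0.01. Lsm7 had 0.68 (0.43 to 0.92), Snrpg 0.65 (0.53 to 0.78), Snrpe 0.45 (0.34 to 0.56), Snrpd2 0.43 (0.31 to 0.55), Lsm6 0.41 (0.14 to 0.68) and Lsm3 0.39 (0.16 to 0.63). The 6 genes that were higher in cells are all among these 8. At least 20% lower with an interval below 0 were 3 members, where 19.1% of the 8063 genes were: Sf3b2 at -0.41 (-0.54 to -0.28), Prpf38b at -0.39 (-0.61 to -0.16) and Lsm2 at -0.36 (-0.59 to -0.13). The differences between barcodes of high and low mitochondrial content were not tested.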

How the results depend on the processing

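With TMM factors, median-of-ratios factors and CPM without mitochondrial and ribosomal protein genes, in that order, the Son log2 ratio moved from -0.67 to -0.58, -0.59 and -0.60, the summed ratio of the members from 0.08 to 0.17, 0.16 and 0.15, and the count of members at least 20% lower from 4 to 0, 0 and 0. The median member moved from -0.05 to 0.035 with TMM factors and to 0.030 with median-of-ratios factors. These scalings raise all ratios alike, by 0.09, 0.08 and 0.07. In cells thinned to 2500 UMIs the count of lower members was 7, and the cause was not tested. At most 5% mitochondrial UMIs gave a median share per cell of 1.04% in control and 1.10% in sonKD, and a minimum of 50 CPM gave a rho of -0.54 with exon number and of -0.39 with transcript length. Of 408 values of single members under alternatives, 280 stayed within their counting interval, 128 left it and 0 of those past the line changed sign. The farthest move was that of Lsm14b, from -0.32 to -0.11 in thinned cells. Leaving out the 6 LSm genes outside the spliceosome, an alternative chosen after seeing the data, gave a median member of -0.03 and the same counts of 4 and 6. No paired analysis was possible because each group held 1 library. Counts of 325 to 649 UMIs limit Prpf40b, Prpf18, Lsm11 and Lsm14b, which have the widest intervals of the 51 genes.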

Other observations

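The 2 rings of 7 subunits have matching positions, with Snrpb, Snrpd1, Snrpd2, Snrpd3, Snrpe, Snrpf and Snrpg opposite Lsm8, Lsm2, Lsm3, Lsm4, Lsm5, Lsm6 and Lsm7. This pairing was looked at after the values were seen. Over all cells, the 4 Sm genes with the highest ratios, those of positions D2, E, F and G, stood opposite the 4 LSm genes with the highest ratios, and Spearman's rho over the 7 positions was 0.71, a description over genes of the same 2 libraries. The match did not hold in every range of depth. From 2500 to 5000 UMIs Lsm6, at -0.20 (-0.55 to 0.15), lay below Lsm4, at -0.14 (-0.35 to 0.06). From 20000 UMIs upward Lsm5, at -0.19 (-0.51 to 0.15), lay below Lsm4, at -0.04 (-0.18 to 0.11). The values of Lsm7, Lsm5, Lsm3 and Snrpe are uncertain for the shared sequence described above.

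The complexes also differed in their share of the UMIs of droplets of 100 to 500 UMIs, set against their share in the cells of the same library. The log2 ratio of droplets over cells was 0.77 in control and 0.74 in sonKD for the Sm ring, 0.48 and 0.36 for U2AF, 0.36 and 0.23 for the U2 proteins, 0.34 and 0.25 for the LSm ring of U6 and 0.12 and 0.07 for the U1 proteins. At the other end were the U5 proteins at -1.49 and -1.74 and SF3a at -1.06 and -1.09. The median of all genes at 10 CPM was -0.92 in control and -1.03 in sonKD. The ratios differed between libraries beyond counting error for some groups, the U5 proteins among them at -1.49 (-1.55 to -1.44) and -1.74 (-1.80 to -1.68).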
